A study of Mus musculus with 2 samples.

Results

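Ptgds encodes the lipocalin-type prostaglandin D synthase, and its RNA was followed here through single-nucleus profiles of the hippocampus of old mice. It is 1 gene of the 10596 listed in at least 1 of the 9 cell type tables that the authors deposited, found by its symbol, and 5 of those tables list it. It was chosen by its log2 fold changes and shares of nuclei in these same tables, so both are given as a description with no test.

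The enzyme turns prostaglandin H2, which cyclooxygenases make from arachidonic acid, into prostaglandin D2. It is also secreted as a carrier of small lipophilic molecules and is among the most abundant proteins of cerebrospinal fluid, where it is known as beta-trace. In the brain its RNA is known from mature oligodendrocytes, the leptomeninges and the choroid plexus, and prostaglandin D2 is best known there for promoting sleep through the receptor DP1.

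The exposed group, called GWI after Gulf War Illness, received 2 chemicals together. One was pyridostigmine bromide (0.7 mg/kg), a carbamate cholinesterase inhibitor, and the other permethrin (200 mg/kg), a pyrethroid insecticide whose targets are sodium channels of nerve cells. The Control group received vehicle. All mice were male C57BL/6J by the series description, injected intraperitoneally once a day for 10 days from 10 weeks of age and killed at 19 months, although the genotype labels read C57/BL7 for GWI and C57/BL6 for Control. The hippocampi of 3 animals made up each pool, and each pool gave 1 library, so there is 1 GWI library and 1 Control library, no replicate spread, and no test of any difference. The sources used here state neither how many nuclei a table rests on nor how many molecules were counted per nucleus, so no interval stands beside a share.

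Every log2 fold change below is the GWI library over the Control library, and every share is the percentage of nuclei of a cell type in which at least 1 molecule of the gene was detected, both from the authors' deposited tables. A check of their values found no gene below 10% of nuclei in both libraries and none whose log2 fold change lay between -0.05 and 0.05. The labels of the tables were set against markers. Mbp, the myelin basic protein gene, was detected in 96.0% of GWI and 95.8% of Control nuclei of the oligodendrocyte table, and the endothelial transcription factor gene Mecom in 88.3% of GWI and 88.4% of Control nuclei of the endothelial table. In the excitatory neuron table Camk2a was in 93.5% of GWI and 94.0% of Control nuclei. The astrocyte table held its own markers, with Slc1a3 in 61.7% of GWI and 58.7% of Control nuclei, but also the neuronal gene Camk2a in 62.2% of GWI and 63.4% of Control nuclei. The table named Other had Camk2a and Grin2b in 100% of nuclei of both libraries. Slc17a7, a marker of excitatory neurons, was in 89.5% of GWI and 89.3% of Control nuclei there. In inhibitory neurons Slc17a7 was in 28.1% of GWI and 30.8% of Control nuclei. Grin2b was in 97.2% of GWI and 97.1% of Control inhibitory nuclei, and Camk2a in 80.3% of GWI and 82.6% of Control. Neither Grin2b nor Camk2a therefore sets excitatory apart from inhibitory neurons.

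In the GRCm38 build, Ptgds (ENSMUSG00000015090.13) lies on the minus strand of chromosome 2, chr2:25466709-25470046, and GENCODE M21 annotates it as a protein-coding gene. It is a short gene of 3.338 kb with 5 annotated transcripts, of which 3 are coding and share the same length of 567 coding bases. No annotated gene overlaps it. The nearest gene on 1 side is another lipocalin, Lcn12, 20.8 kb away, and on the other side Paxx, 5.62 kb away. The sequence in front of the gene is shown because it is what all cell types share at this locus, and it was read from the RefSeq promoter table for GRCm38.p6. The first run below is the 157 bases at chr2:25469843-25469999, minus strand, in front of the start of the transcript Ptgds-201 and inside the first intron of Ptgds-202, which starts further upstream. The second is a window of 30 bases at chr2:25469763-25469792, minus strand, just before the RefSeq start at 25469749 and inside the first exon of Ptgds-201. Capitals mark matches to CANNTG, the E-box, in the first run. In the second run they mark a match to the AP-1 motif TGANTCA. It runs into a TATA-like match, ATAAATA, also in capitals.

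Ptgds upstream: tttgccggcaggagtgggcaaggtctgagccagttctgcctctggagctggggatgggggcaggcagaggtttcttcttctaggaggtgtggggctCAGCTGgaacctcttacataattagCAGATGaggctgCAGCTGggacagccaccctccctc
Ptgds start window: gccaagccTGACTCATAAATAgggggtctc

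The AP-1 match began 35 bases and the TATA-like match 29 bases before the RefSeq start, and they share 1 base. On both strands of all 32851 RefSeq promoter windows of the same length, 300 bases, TGANTCA was found in 7.81% and ATAAATA in 5.60%. The 3 E-box matches of Ptgds are of a kind found in 72.3% of windows. An N-box, CACNAG, matched once and is found in 42.5% of windows. The TATA box TATAAA was not in the Ptgds window and is in 13.6% of all windows. The GC-box, GGGCGG, was not there either and is in 35.7% of windows. The same held for the glucocorticoid receptor hexamer AGAACA, in 19.0% of windows, and for the hypoxia response core ACGTG, in 19.6%. The motifs were chosen after the sequence was seen, and a match is a description of letters.

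Ptgds was detected most widely in oligodendrocytes in both libraries. There 51.0% of GWI nuclei held it, and 40.7% of Control nuclei did. In the Other table the share was 16.9% of GWI and 14.0% of Control nuclei. Astrocytes followed with 13.2% of GWI and 10.9% of Control nuclei. Excitatory neurons had 11.8% of GWI and 9.3% of Control nuclei. Endothelial cells had 8.7% of GWI and 10.5% of Control nuclei, the 1 table of the 5 in which the share was lower in GWI. Oligodendrocytes stood well apart from the other 4 tables, which ran from 8.7% to 16.9% of nuclei in GWI and from 9.3% to 14.0% in Control. The order of those 4 tables was the same in the GWI and Control libraries except that endothelial cells stood last in GWI and excitatory neurons last in Control, and without replicates the order of such near values cannot be judged. The tables of inhibitory neurons, oligodendrocyte precursor cells (OPCs), microglia and pericytes do not list Ptgds, so that there it either stayed below 10% of nuclei in each library or differed by less than the 0.05 minimum.

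**Figure D1:**
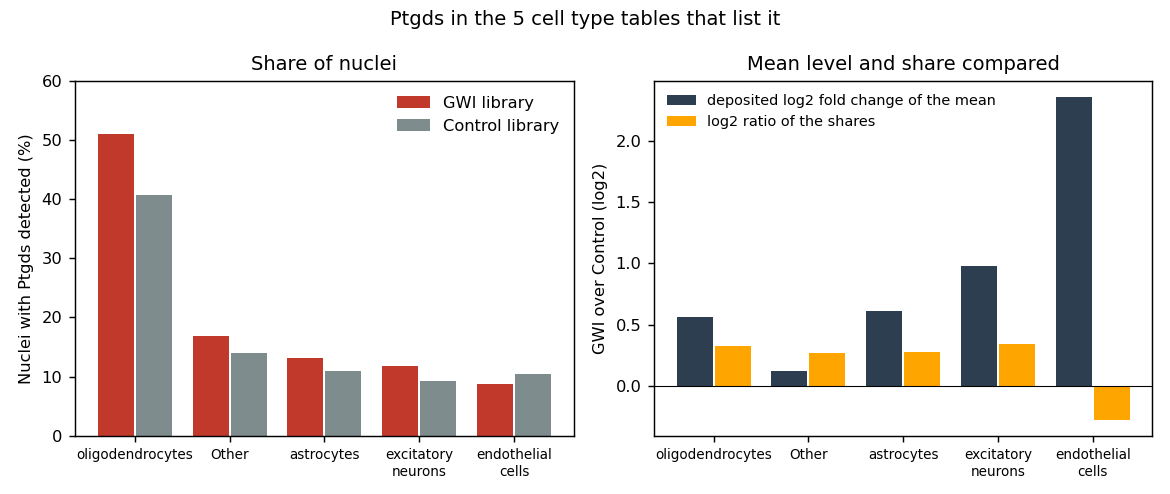
Left, percentage of nuclei with Ptgds detected in the GWI library (red) and the Control library (grey) for each table that lists it; right, the deposited log2 fold change of the mean (dark) and the log2 ratio of the shares (orange), 1 library per group and no error bars. Oligodendrocytes reach 51.0% of GWI and 40.7% of Control nuclei, and in endothelial cells the log2 fold change of the mean is 2.35 while the log2 share ratio is -0.27.

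By mean level, Ptgds was higher in the GWI library in all 5 tables that list it. In excitatory neurons it passed the 10% listing minimum in GWI alone, with 11.8% of GWI and 9.3% of Control nuclei. In endothelial cells it passed in Control alone, with 10.5% of Control and 8.7% of GWI nuclei. The authors' deposited log2 fold change was 0.57 in oligodendrocytes, a 1.48-fold higher mean. It was 0.61 in astrocytes, or 1.53-fold, and 0.98 in excitatory neurons, or 1.97-fold. The value in the Other table was 0.13, or 1.09-fold, and in endothelial cells 2.35, or 5.11-fold. As background, 44.5% of genes listed in oligodendrocytes were higher in GWI, 48.6% in astrocytes, 52.3% in excitatory neurons, 53.1% in Other and 48.4% in endothelial cells. Of the 739 genes listed in all 5 of these tables, 123 were higher in every one, or 16.6%.

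Set among all genes of the same table, Ptgds lay near the top in 4 tables and in the middle of the fifth. In excitatory neurons it was the second highest of 6013 genes, just under the predicted gene Gm12371, which was also at 0.98. In oligodendrocytes it ranked 24 of 2053, in astrocytes 24 of 5121 and in endothelial cells 33 of 5129. In the Other table it ranked 2945 of 7848, although Camk2a and Slc17a7 were widely detected there as in excitatory neurons. In 4 of the 5 tables Ptgds was higher by 0.5 or more, and 1.95% of genes in oligodendrocytes, 1.33% in astrocytes, 1.38% in excitatory neurons, 22.7% in endothelial cells and 4.28% in Other were that much higher. The size rule of 1 was reached in endothelial cells alone among the 5, where 8.54% of all listed genes were also past it in that direction, beside 0.0195% in astrocytes, 0.255% in Other and 0 genes in oligodendrocytes and excitatory neurons. Fold changes spread widely in that table, with a standard deviation across genes of 0.80, against 0.21 to 0.29 in the other 4 tables.

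**Figure D2:**
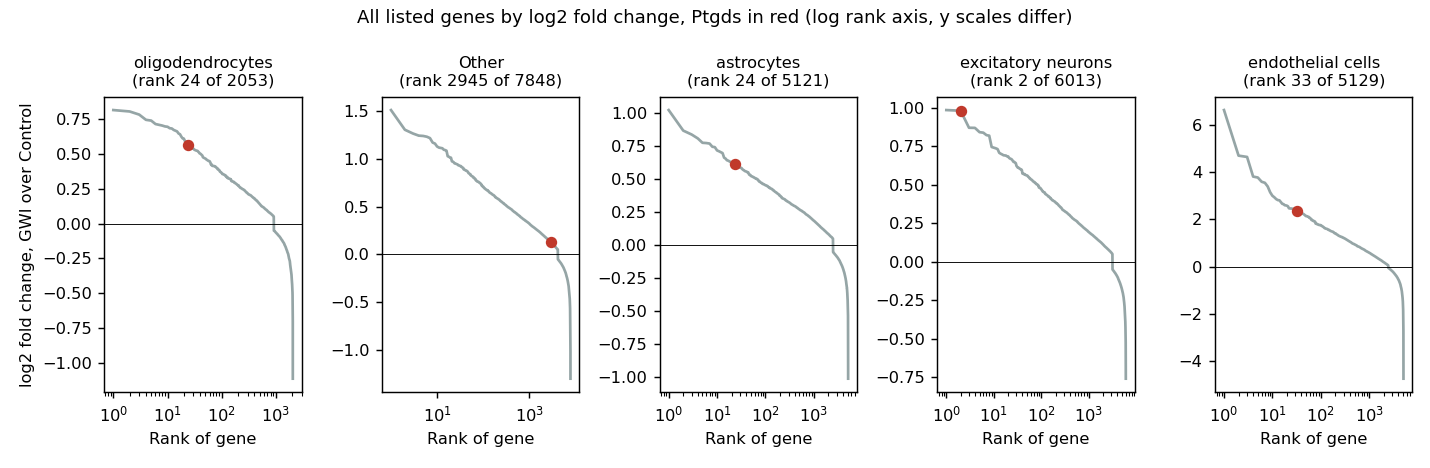
Log2 fold change of every listed gene (grey line) against its rank from the highest, on a log rank axis, in the 5 tables, with Ptgds in red. Ptgds sits at rank 2 in excitatory neurons, 24 in oligodendrocytes and astrocytes, 33 in endothelial cells and 2945 in Other.

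In 4 of the 5 tables the mean differed by more than the share of nuclei did, and in Other by less. The log2 ratio of the GWI share to the Control share was 0.34 in excitatory neurons, 0.33 in oligodendrocytes, 0.28 in astrocytes, 0.27 in Other and -0.27 in endothelial cells. By that ratio Ptgds ranked only 618.5 of 6013 genes in excitatory neurons, 741 of 5121 in astrocytes, 171 of 2053 in oligodendrocytes and 3453 of 5128 in endothelial cells, and in Other it ranked 1779.5 of 7848, higher than by the mean. Shares were higher in GWI for most genes of some tables whatever their mean did, for 80.0% of genes in excitatory neurons, 67.4% in astrocytes, 66.9% in Other, 53.2% in oligodendrocytes and 42.1% in endothelial cells. The part of this general shift in the Ptgds shares was not tested.

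The difference between the log2 fold change of the mean and the log2 ratio of the shares was therefore computed, a measure chosen after the Ptgds values were seen. If the deposited means are plain averages over all nuclei, which the sources used here do not state, this difference is the log2 fold change of the mean among nuclei in which the gene was detected. It was 0.64 for Ptgds in excitatory neurons, which corresponds to 1.55-fold more per positive nucleus, and was the highest value of all 6013 genes there. Mef2c, a neuronal transcription factor gene, came next with 0.36. In astrocytes the value of Ptgds was 0.34, rank 3 of 5121 genes, after the nuclear long noncoding RNA Malat1 (0.40) and Cpeb4 (0.38). In oligodendrocytes it was 0.24, rank 4 of 2053 genes, with Malat1 (0.32) above it and also the desaturase gene Scd2 (0.29). Endothelial cells had 2.62, the highest of 5128 genes with a share above 0 in both libraries. The Other table had -0.14, rank 5376 of 7848, so there Ptgds did not stand out in this measure either. Rounding of the shares could move these values by at most 0.015, while the error from the number of nuclei counted is not known.

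**Figure D3:**
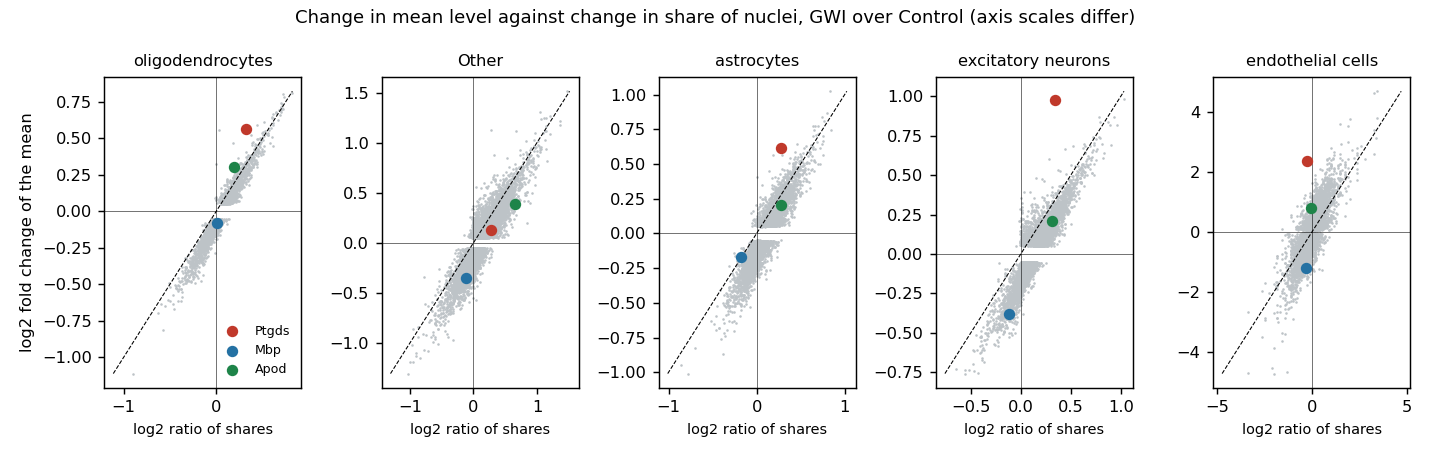
Log2 fold change of the mean against the log2 ratio of shares of nuclei, GWI over Control, for every listed gene (grey) of the 5 tables, with Ptgds red, Mbp blue and Apod green and equality as the dashed line. Ptgds lies further above the equality line than any other gene in excitatory neurons (0.98 against 0.34) and endothelial cells (2.35 against -0.27), and just below it in Other (0.13 against 0.27).

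In endothelial cells the mean and the share went opposite ways, as they did for 18.3% of all genes listed there. Of these, 10 genes had a log2 fold change of at least 1 with a lower share in GWI, and Ptgds had the highest fold change of the 10, followed by the zinc transporter gene Slc30a5 at 1.31 with 10.7% of GWI and 11.6% of Control nuclei. Among other oligodendrocyte transcripts of this table, Mbp was lower in GWI, at -1.21, in 13.6% of GWI and 16.8% of Control nuclei. All 6 listed oligodendrocyte markers were lower there, where 48.4% of all listed genes were higher. The median of the 6 was -1.12, beside -0.07 over all genes. By contrast the lipocalin gene Apod, also of mature oligodendrocytes, was at 0.80. It was the 1 higher gene of 6 listed genes of late mature oligodendrocytes. The other 5 were lower, Trf most (-1.53), and the median of the 6 was -0.37. The tetraspanin gene Cd9 was at 2.25. Of 6 listed genes reported in injured or aged oligodendrocytes, Cd9 among them, 5 were higher and 1 was lower. Markers of other cells were lower too, all 6 listed of pericytes and mural cells (median -0.82), all 4 of OPCs (median -0.85) and all 4 of erythrocytes (median -4.61). The summed shares of the erythrocyte genes were 19.4% in GWI and 68.4% in Control. Of 6 listed endothelial markers 5 were higher, with a median of 0.24, from -0.19 for Adgrl4 to 0.59 for Pecam1. The part of these other cells' transcripts in the Ptgds values was not tested. The Control shares of the 10 genes took only the values 10.5%, 11.6%, 12.6%, 13.7% and 16.8%, steps of a table with few nuclei. The Ptgds shares are close to the listing minimum of 10%, and the number of nuclei is not given. How few nuclei carry the higher mean was not tested.

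Oligodendrocytes, the cells with most Ptgds, also had other transcripts of the mature cell at higher levels in GWI in the authors' deposited table. Of 12 genes that mark late mature mouse oligodendrocytes with Ptgds, 9 were listed and all 9 were higher, beside 44.5% of all listed genes. The 9 had a median log2 fold change of 0.25, beside -0.07 over all genes. Cryab, 1 of the 9, passed the 10% minimum in GWI alone, with 10.4% of GWI and 8.2% of Control nuclei. Selenop, which encodes a secreted selenium carrier, was at 0.67 and was detected in 16.2% of GWI and 10.6% of Control nuclei. Gsn, which encodes the actin-severing protein gelsolin, was at 0.41, with 20.5% of GWI and 15.2% of Control nuclei. The lipocalin gene Apod was at 0.30, with 63.1% of GWI and 55.2% of Control nuclei, and the carbonic anhydrase gene Car2 at 0.25, with 60.5% of GWI and 52.9% of Control nuclei. The transferrin gene Trf was at 0.21 and the alarmin gene Il33 at 0.15.

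Of 15 general oligodendrocyte markers, structural myelin genes included, 11 were listed, 9 higher and 2 lower, beside 44.5% of all genes higher. Their median was 0.19. Ermn, which encodes a cytoskeletal protein of oligodendrocytes, was at 0.49, with 30.1% of GWI and 21.5% of Control nuclei. Mal was at 0.30, with 74.0% of GWI and 64.8% of Control nuclei. Mbp at -0.08, in 96.0% of GWI and 95.8% of Control nuclei, and Mobp at -0.11, in 68.6% of GWI and 69.2% of Control nuclei, were the 2 lower ones. Genes of earlier mature states, of which 2 of 8 were listed, were at 0.39 (Opalin) and 0.30 (Mal). Of 10 genes reported in injured or aged oligodendrocytes, the tetraspanin genes Cd9 and Cd63 were listed, at 0.80 and 0.57.

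Oligodendrocyte transcripts were also detected in tables of other cell types, and their values are set beside those of Ptgds there. In excitatory neurons Mbp was in 42.2% of GWI and 45.9% of Control nuclei, far wider than Ptgds. Its log2 fold change was -0.38, and that of Mobp was -0.39, against 0.98 for Ptgds. That table lists 7 markers of oligodendrocytes, of which 2 were higher, beside 52.3% of all its genes. The 7 markers had a median log2 fold change of -0.14 and summed shares of 163.3% in GWI and 164.0% in Control. In astrocytes Mbp was in 26.0% of GWI and 29.4% of Control nuclei, at -0.17. Of the 4 listed markers 2 were higher there, beside 48.6% of all genes. The 4 had a median of 0.03 and summed shares of 84.6% in GWI and 85.4% in Control. In the Other table Mbp was in 67.3% of GWI and 72.8% of Control nuclei, at -0.35. There 4 of the 10 listed markers were higher, beside 53.1% of all genes, and the median of the 10 was -0.26. Whether the Ptgds molecules of neurons and astrocytes came from these nuclei or from free RNA or mixed droplets was not tested.

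Set against Mbp, whose log2 fold change was below 0 in all 5 tables, Ptgds differed most in endothelial cells. The log2 fold change of Ptgds minus that of Mbp was 0.64 in oligodendrocytes, 0.79 in astrocytes, 1.36 in excitatory neurons, 0.47 in Other and 3.56 in endothelial cells. The share of Ptgds divided by that of Mbp was 0.531 in GWI and 0.425 in Control oligodendrocytes. It was 0.508 in GWI and 0.371 in Control astrocytes, 0.280 in GWI and 0.203 in Control excitatory neurons, 0.251 in GWI and 0.192 in Control nuclei of Other, and 0.640 in GWI and 0.625 in Control endothelial cells. This ratio was higher in GWI in all 5 tables, and the mean of Mbp was itself lower in each. In oligodendrocytes Mbp was 1 of the 2 lower markers of 11 listed, so the values depend on that choice. Shares near 100% cannot follow the number of molecules, so the ratio to Mbp in oligodendrocytes is not comparable with the others. Minus that of Apod, the log2 fold change of Ptgds was -0.26 in Other. In the other tables it ran from 0.26 in oligodendrocytes to 1.56 in endothelial cells. In oligodendrocytes the difference was 0.68 against Mobp, 0.36 against Trf, 0.32 against Car2, 0.19 against Apoe and -0.10 against Selenop. In Other it was 0.40 against Mobp and 0.56 against Car2. There it was -0.16 against Cst3, -0.15 against Trf, and -0.11 against each of Apoe and Clu. The Ptgds share divided by that of Apod was lower in GWI in Other (0.701, Control 0.915) and endothelial cells (0.407, Control 0.475). It was higher in oligodendrocytes (0.808, Control 0.737) and excitatory neurons (0.855, Control 0.838).

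Markers of the other tissues known for Ptgds were hardly listed. Of 15 markers of meningeal and perivascular fibroblasts 11 were in none of the 9 tables, among them Dcn, Col1a1, Col1a2, Slc6a13 and Igf2, and the other 4 were all listed in astrocytes. There Igfbp2 was at 0.31, Col12a1 at 0.29, Ranbp3l at 0.13 and Cped1 at -0.11. Cped1, the most widely detected of them, was also at -0.24 in endothelial cells, 0.36 in pericytes and 0.18 in Other. Of 16 choroid plexus markers 13 were in none, among them Ttr, Folr1, Kl and Aqp1, and of the other 3 Htr2c and Trpm3 were widest in excitatory or Other nuclei and Enpp2 in oligodendrocytes, in 92.8% of GWI and 89.5% of Control nuclei. Of 7 ependymal markers, Cfap299 alone was listed. A gene that is not listed may still be present below 10% of nuclei, or at a level that differed by less than the minimum.

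Apod, the other lipocalin with wide detection, was higher in GWI in all 7 tables that list it. In excitatory neurons its log2 fold change was 0.21, with 13.8% of GWI and 11.1% of Control nuclei, and in astrocytes 0.21, with 13.8% of GWI and 11.4% of Control nuclei. The tables of inhibitory neurons and microglia, which do not list Ptgds, had Apod at 0.38 and 0.35. Other had 0.39, and endothelial cells had 0.80 with shares of 21.4% in GWI and 22.1% in Control. Apod lacked the excess of mean over share that Ptgds showed in excitatory neurons, with -0.11 against 0.64. Its excess was also below 0 in astrocytes (-0.07) and Other (-0.27). It was above 0 in oligodendrocytes (0.11, rank 9 of 2053), endothelial cells (0.84, rank 214 of 5128) and inhibitory neurons (0.21, rank 106 of 5656). Of the 15 genes of lipocalins and related carriers, Fabp3 was the only other one listed, at -0.13 in Other.

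Several other genes of proteins abundant in cerebrospinal fluid were higher in GWI in the authors' deposited tables, though less than Ptgds in excitatory neurons. Cst3, which encodes the protease inhibitor cystatin C, was higher in all 7 tables that list it, at 0.12 in excitatory neurons, 0.47 in astrocytes and 0.97 in microglia. Apoe, which encodes the main lipid carrier of the brain, was higher in all 7 of its tables, from 0.05 in excitatory neurons to 0.38 in oligodendrocytes. The chaperone gene Clu was higher in 5 of 6, at 0.14 in excitatory neurons, 0.45 in astrocytes and -0.18 in OPCs. Of the 18 genes on this list, 6 of 7 listed ones were higher in excitatory neurons, where 52.3% of all genes were. The counts were 3 of 4 in oligodendrocytes (44.5%), 5 of 8 in astrocytes (48.6%), 7 of 9 in endothelial cells (48.4%) and 5 of 10 in Other (53.1%). The median of the listed members was 0.12 in excitatory neurons, 0.26 in oligodendrocytes, 0.19 in astrocytes, 0.18 in endothelial cells and -0.01 in Other. The medians over all genes lay between -0.07 and 0.06 in these tables. In the tables without Ptgds, 10 of 10 were higher in inhibitory neurons, where 50.6% of all genes were, and 6 of 6 in microglia (46.8%). They numbered 2 of 6 in OPCs (50.7%) and 1 of 5 in pericytes (47.2%), both below the share of all genes. Apod, counted as higher in inhibitory neurons and microglia, passed the 10% minimum there in GWI alone. Timp2, which encodes a metalloprotease inhibitor, was lower in 5 of 8 tables, among them excitatory neurons (-0.22), astrocytes (-0.21) and Other (-0.24).

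**Figure D4:**
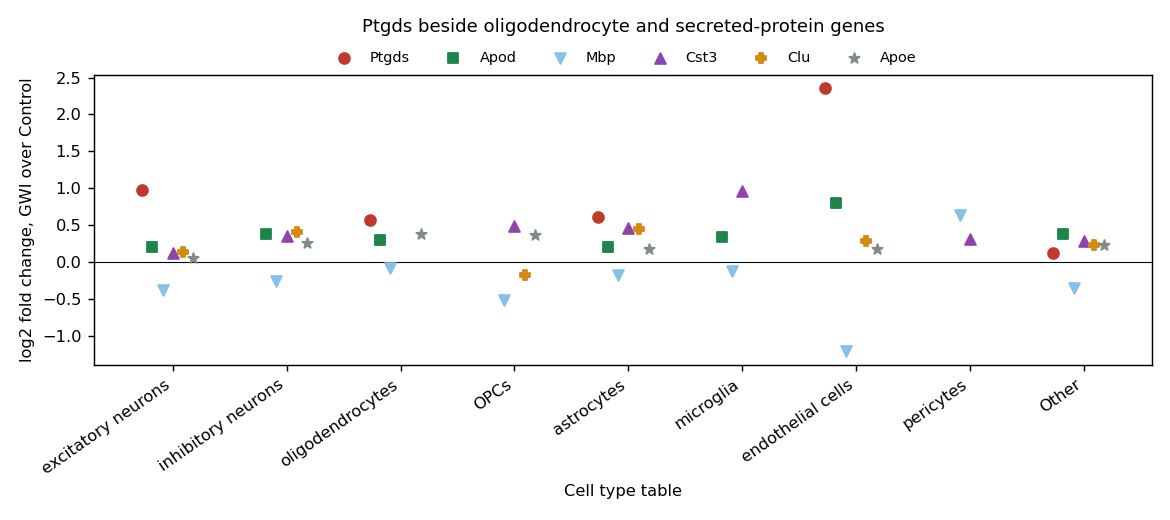
Log2 fold change, GWI over Control, of Ptgds (red circles), Apod, Mbp, Cst3, Clu and Apoe in each of the 9 tables that lists them. Ptgds is above those of the other 5 genes that are listed in excitatory neurons, oligodendrocytes, astrocytes and endothelial cells, while Mbp is below 0 in every table that lists it except pericytes.

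The other genes of the prostaglandin pathway did not share 1 direction. Of 48 symbols for enzymes, receptors and transporters, older aliases included, 23 were listed in at least 1 table. In excitatory neurons 6 of 13 were higher, with 52.3% of all genes higher, in oligodendrocytes 2 of 2 (44.5%) and in astrocytes 5 of 10 (48.6%). Endothelial cells had 5 of 9 higher (48.4%) and Other 6 of 18 (53.1%). In the tables without Ptgds, 5 of 11 were higher in inhibitory neurons, with 50.6% of all genes higher, 4 of 7 in OPCs (50.7%), 5 of 6 in microglia (46.8%) and 3 of 3 in pericytes (47.2%). Medians ran from -0.11 in Other to 0.72 in endothelial cells. Some higher members passed the 10% minimum in GWI alone, such as Ptges3 in microglia (11.4% of GWI, 8.3% of Control nuclei).

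Among enzymes that release arachidonic acid or its precursors, 11 of 16 were listed. The cytosolic phospholipase gene Pla2g4a was at 1.02 in endothelial cells, in 34.0% of GWI and 24.2% of Control nuclei, and at 0.27 in microglia, in 26.5% of GWI and 19.2% of Control nuclei. Mgll, whose enzyme frees arachidonic acid from 2-arachidonoylglycerol, was at 0.84 in endothelial cells but at -0.11 in excitatory neurons and -0.19 in astrocytes. Daglb, which encodes a diacylglycerol lipase of the same route, was at 0.42 in OPCs, 0.27 in astrocytes, 0.21 in excitatory neurons and -0.10 in Other. Its homologue Dagla was lower in all 4 tables that list it, at -0.30 in Other and -0.17 in excitatory neurons. The platelet-activating factor hydrolase gene Pla2g7 was at 0.87 in OPCs, in 17.7% of GWI and 9.2% of Control nuclei, and at 0.35 in astrocytes. Abhd6, a further hydrolase gene, was at -0.89 and Abhd12 at 0.72 in endothelial cells, with Abhd12 at 0.35 in pericytes. Faah was at -0.37 in inhibitory neurons and Pla2g15 at -0.33 in Other.

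The substrate of the synthase is made by cyclooxygenases, and of these Ptgs1 was listed in microglia, at 0.28, in 31.5% of GWI and 24.4% of Control nuclei. Ptgs2 was listed in none of the 9 tables. The second prostaglandin D synthase gene, Hpgds, whose product is a glutathione-dependent enzyme of blood-derived and microglial cells, was listed in microglia alone, at 0.16, in 58.0% of GWI and 51.9% of Control nuclei. Thus the tables list Ptgds and Hpgds in different cell types. Of the remaining terminal synthases Ptges3, also known as the cochaperone p23, was listed in all 9 tables, from -0.53 in endothelial cells to 1.06 in pericytes, and was at 0.08 in excitatory neurons. Ptges2 was at 0.11 in Other.

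Neither receptor of prostaglandin D2, Ptgdr or Ptgdr2, was listed in any table. Of 11 receptor symbols, Pparg, a nuclear receptor that binds a metabolite of prostaglandin D2, was at 0.41 in excitatory neurons, in 46.9% of GWI and 36.2% of Control nuclei, and at -0.22 in Other. Ptger3, a prostaglandin E2 receptor gene, was at 0.18 in Other. The transporter gene Slco3a1 was lower in 6 of 7 tables, at -0.33 in excitatory neurons, -0.37 in inhibitory neurons, -0.31 in OPCs, -0.24 in astrocytes, -0.71 in endothelial cells and -0.33 in Other, with pericytes at 0.38. Slco2a1, the main prostaglandin uptake transporter gene, was at 0.52 in Other, and the efflux transporter gene Abcc4 was at 0.41 in OPCs, -0.34 in endothelial cells and -0.32 in Other.

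The prostaglandin reductase gene Ptgr2 was higher in all 4 tables that list it, at 0.29 in excitatory neurons, 0.27 in astrocytes, 0.93 in endothelial cells and 0.64 in Other, where it was detected in 24.6% of GWI and 16.4% of Control nuclei. Zadh2, a further reductase gene, was at 1.57 in endothelial cells, in 14.6% of GWI and 5.3% of Control nuclei, but at -0.20 in excitatory neurons and -0.19 in Other. Hpgd, which encodes the dehydrogenase that inactivates prostaglandins, was at 0.10 in microglia. Of 10 genes of the lipoxygenase branch 4 were listed, among them Ltc4s at 0.46 in microglia, Lta4h at 0.95 in endothelial cells and 0.38 in Other, Ephx1 at -0.64 in endothelial cells, and Ephx2 at -0.06 in Other.

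**Figure D5:**
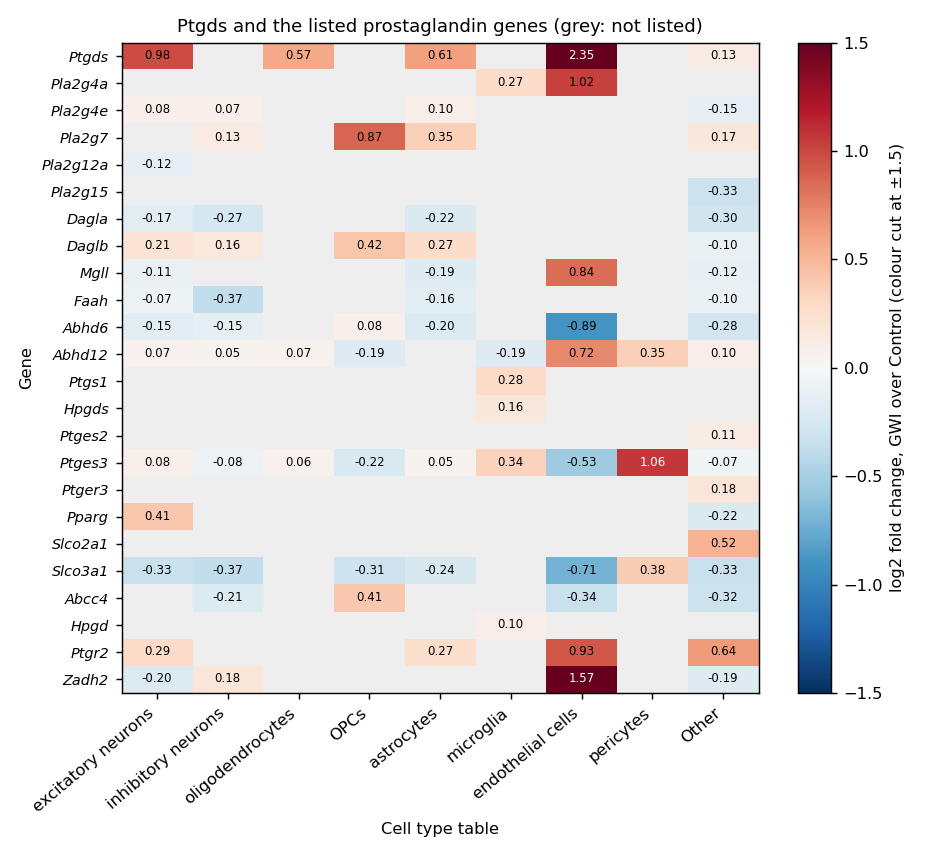
Log2 fold change, GWI over Control, of Ptgds (top row) and the 23 listed prostaglandin genes in the 9 cell type tables, with the value in each cell, colour cut at 1.5 and grey where a gene is not listed. Ptgds is above 0 in all 5 of its tables, Slco3a1 is below 0 in 6 of 7, Dagla and Faah are below 0 in 4 of 4, and Ptgr2 and Pla2g7 are above 0 in 4 of 4.

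Among the 738 other genes listed in the same 5 tables, none matched the pattern of Ptgds closely. Likeness was the root mean square difference in log2 fold change over the 5 tables. The nearest was Atp6v0b, which encodes a subunit of the vacuolar proton pump, at 0.40, followed by Asah2 (0.47), Rnf141 (0.48), Trim35 (0.52) and Sytl2 (0.61). Atp6v0b was at 1.81 in endothelial cells but at only 0.38 in excitatory neurons. No other gene reached a log2 fold change of 0.5 in 4 of the 5 tables, and Ptgds was chosen with such values known. By the order of the shares over the 10 values of both libraries, the nearest genes were Stxbp3 (Spearman correlation of 0.98), Scd2 (0.96), Phlpp1 (0.93), Arrdc3 (0.90) and Fbxo7 (0.90). These correlations share the depth of each table and library.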

How the data were processed

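Nuclear RNA was profiled with the 10x Genomics 3′ chemistry, per the labels' protocols, and Cell Ranger and GRCm38 (mm10) were used, per the submitters' processing notes. Cell type assignment, doublet and free RNA treatment and the authors' test are steps the sources used here do not describe. Values came from the authors' deposited tables, 1 per cell type. They give a log2 fold change of means, whose scaling and pseudocount are not stated, per the file headers. They also hold, for each library, the deposited fraction of nuclei in which a gene was seen, shown as a percentage. Headers only number the groups, so GWI was read as the first because the comparison label names it first, and every direction rests on that. The label writes PBS for vehicle. The deposited p-values treat nuclei of 1 library as replicates and were not used.

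With 1 library of 3 pooled mice per group no test was made, counts are by size (log2 of 1 and 0.5), and molecules per nucleus were not available. Ptgds and the gene lists were chosen with earlier results of these data known. Named were Ptgds, pathway members that differed by 0.3 or more (log2) in any table or the largest where none was, markers with the widest detection, and the 5 genes most like Ptgds. Genes outside that rule (Malat1, Mef2c, Cpeb4, Gm12371, Slc30a5, and list members with smaller values) were chosen after their values were seen. 1 gene is not reported here by name. Ranks and likeness were tested on simulated data. Gene positions came from GENCODE M21 and promoters from RefSeq. Python 3.11.15, pandas 2.3.3, numpy 2.4.6 and matplotlib 3.10.9 were used.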

Additional observations from a re-analysis of the deposited data

How the results depend on the processing

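With 1 library per group, no replicate could be left out. No paired analysis was possible because each group is 1 pooled library. Centring on the median of each table gave Ptgds log2 fold changes of 0.92 in excitatory neurons, 0.64 in oligodendrocytes, 0.67 in astrocytes, 2.42 in endothelial cells and 0.064 in Other, all above 0. Subtracting the median Ptgds value of the other tables left 0.39 in excitatory neurons and 1.76 in endothelial cells, and turned oligodendrocytes to -0.23, astrocytes to -0.16 and Other to -0.67, because that setting sets the tables against one another. The log2 ratio of shares in place of the mean gave 0.34, 0.33, 0.28 and 0.27 in excitatory neurons, oligodendrocytes, astrocytes and Other, and -0.27 in endothelial cells, so the direction there depends on the measure and the cause was not tested. The size rule was passed in 1 table at a log2 fold change of 1 and in 4 tables at 0.5.

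Ranks moved with the genes compared. Without predicted, Riken and mitochondrial genes Ptgds ranked 1 in excitatory neurons and 14 in astrocytes. Among genes detected in at least 25% of nuclei it ranked 5 in oligodendrocytes, and the other 4 tables gave no value. Among genes with a Control share within 5 points it ranked 1 of 110 in oligodendrocytes, 9 in endothelial cells and 1076 in Other. Among protein-coding genes of up to 10 kb, a setting added after the data were seen, it ranked 1 of 490 in excitatory neurons, 6 of 82 in oligodendrocytes, 3 of 256 in astrocytes, 9 of 487 in endothelial cells and 434 of 898 in Other. By mean change minus share change, also added later, it ranked 1, 4, 3, 1 and 5376 in those tables.

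At 25% detection the prostaglandin genes higher in GWI numbered 3 of 8 in excitatory neurons (45.2% of all genes at that minimum), 1 of 4 in inhibitory neurons (43.1%), 0 of 1 in OPCs (45.7%), 1 of 4 in astrocytes (40.6%), 3 of 4 in microglia (45.1%), 2 of 4 in endothelial cells (45.1%), 1 of 1 in pericytes (45.6%) and 1 of 11 in Other (49.9%), against 6 of 18 in Other without the minimum. In oligodendrocytes no member was left. Centring changed no count of higher members taken without that minimum, and it cannot change likeness, which rests on differences within a table. Likeness without endothelial cells, added later, put 4930419G24Rik first (0.23), with log2 fold changes of 0.68 in excitatory neurons, 0.78 in oligodendrocytes, 0.66 in astrocytes and 0.39 in Other, then Gm48742 (0.31), Gm11149 (0.32), Eif2s3y (0.34) and Rsrp1 (0.34).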
